A study of Mus musculus with 98 samples.

Results

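Fibroblasts of the newborn thymus were compared between mice carrying 1 disrupted copy each of Tbx1 and Crkl and their WT littermates. The cells were chosen by their deposited label, which begins with CapFb for capsular and MedFb for medullary fibroblasts. This gave 5806 of the 21451 labelled cells of the newborn data set, 3631 capsular and 2175 medullary, out of 57659 labelled cells in the whole series. Stroma was sorted as Ter119- CD45- cells, which removes red cells and leukocytes and keeps thymic epithelial cells (TEC), fibroblasts, endothelium and mural cells, and it was fixed before capture. Tags from the 3′ ends of transcripts were counted as unique molecular identifiers (UMIs), so that each captured transcript counts once. The HET group held 3 libraries labelled Tbx1+/-Crkl+/- and the WT group 3 libraries of wild-type mice, all of postnatal day 0. The Tbx1 allele carries a lacZ insertion. The Crkl allele is a germline null made by Cre recombination, and the Cre was bred out, so neither loss is confined to fibroblasts. The compound heterozygotes came from crosses of single heterozygotes, and the sources used here do not say whether a library held 1 thymus or several.

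Thymic fibroblasts derive largely from the neural crest and build the capsule, the septa and the medullary stroma. They lay down matrix and supply growth factors and chemokines to TEC and to developing T cells. Capsular fibroblasts lie at the surface and along septa, and medullary fibroblasts lie among mTEC and vessels. Tbx1 encodes a T-box transcription factor of the pharyngeal apparatus, and Crkl encodes an adaptor that couples integrin, FGF and other tyrosine kinase signals to Rap and Rac proteins in adhesion and migration. Both genes lie in the region deleted in DiGeorge syndrome. The comparison asks whether fibroblasts as 1 population, or the capsular and medullary cells apart, differ in gene expression when both genes lose a copy.

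For each library the UMIs of all its fibroblasts were added up, and levels are given as counts per 1000000 UMIs of the same sum (CPM). Values of the 6 libraries are always listed in the order HET1, HET2, HET3, then WT1, WT2, WT3. A gene is called changed where the quasi-likelihood test of edgeR, with libraries as replicates (n = 3 against 3), gave an adjusted p under 0.05. Libraries held 424, 1242 and 897 fibroblasts in HET and 862, 766 and 1615 in WT. Their summed UMIs were 1205649, 3784100 and 2453463 in HET and 2672034, 3648983 and 10342954 in WT, so WT3 alone held more than the 3 HET libraries together. The median fibroblast had 2461.5, 2684 and 2466 UMIs in HET and 2597, 4162 and 5863 in WT. Of 21407 cell barcodes, 44 occurred in more than 1 library. The 11 shared fibroblast markers, among them Pdgfra, Col1a1 and Dcn, summed to 15774 to 24470 CPM in fibroblasts. In the same libraries they summed to 4221 to 4771 CPM in mural cells and 887.6 to 2697 CPM in TEC. The labels were themselves drawn from these transcriptomes, so the marker levels describe the cells and do not check the labels. None of the 3 lists of TEC markers was at 0 in fibroblasts, and their levels are given with the results they move with.

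Tbx1 (GRCm38 chr16:18580979-18590671, minus strand) had 0, 0 and 1 UMIs in the HET fibroblasts and 3, 2 and 12 in WT. The HET to WT ratio of Tbx1 UMIs per total was 0.132, with an exact 95% Poisson interval of 0.00315 to 0.840 that covers counting error only. In TEC, Tbx1 had 2 UMIs in all HET libraries and 9 in all WT libraries, a ratio of 0.337 with an interval of 0.0354 to 1.63. These counts are too low for a test across genes. Crkl (chr16:17451987-17487434, plus strand) stood at 31.5, 23.5 and 24.9 CPM in HET and 23.2, 26.3 and 17.98 CPM in WT, a log2 fold change of 0.19 ± 0.22 (SE, adjusted p = 0.80). Where the Crkl tags lie relative to the recombined sequence was not read, so whether this level reflects the genotype was not tested. Crk, the paralogous adaptor, stood at 69.7, 67.4 and 73.8 CPM against 65.1, 67.4 and 59.9 CPM (0.09 ± 0.18, adjusted p = 0.89).

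In the pooled fibroblasts none of 11897 genes tested was called (0%), although 1007 genes (8.46%) had an unadjusted p under 0.05 in the edgeR test, 628 higher and 379 lower in HET. DESeq2 on the same sums called 11. The highest ranked gene was Zbtb16 (chr9:48654297-48836222), which encodes the zinc finger transcription factor PLZF. It stood at 81.3, 56.6 and 64.4 CPM in HET and 16.47, 7.40 and 21.8 CPM in WT, a log2 fold change of 2.01 ± 0.30 with an adjusted p of 0.073. All 3 HET libraries lay above all 3 WT libraries, as they did for 6.81% of the genes tested, and they lay below for 5.49%. Next by p were Tnfrsf11b, which encodes osteoprotegerin, the decoy receptor of RANKL, and Tppp3, which encodes a tubulin polymerisation promoting protein. Tnfrsf11b stood at 2.49, 5.55 and 5.71 CPM in HET and 14.6, 20.01 and 20.7 CPM in WT (-1.95 ± 0.31, adjusted p = 0.076). Tppp3 stood at 31.5, 19.6 and 25.3 CPM in HET and 50.1, 75.4 and 61.9 CPM in WT (-1.39 ± 0.23, adjusted p = 0.076). Leaving out WT1 gave 9 called genes, among them Zbtb16, Tnfrsf11b and Tppp3 (adjusted p = 0.015, 0.0086 and 0.0086). Without HET2 or without WT3, 1 gene was called, Zbtb16 (adjusted p = 0.0057 and 0.00068).

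The other 7 of the 10 genes with the smallest p in the pooled fibroblasts were all higher in HET, and all of them were better expressed in TEC. Slc46a2, a transporter that is itself a cortical TEC marker, stood at 67.2, 118 and 68.5 CPM in HET fibroblasts and 30.7, 36.2 and 31.04 CPM in WT (1.35 ± 0.24, adjusted p = 0.11), and its mean level in TEC was 13.03 times as high. Dsc2, which encodes the desmosomal cadherin desmocollin, stood at 12.4, 19.3 and 17.9 CPM against 3.74, 5.48 and 5.80 CPM (1.65 ± 0.30, adjusted p = 0.11), with a mean level in TEC 10.8 times as high. Nav2, a neuron navigator protein gene, stood at 35.7, 49.2 and 46.1 CPM against 25.8, 18.1 and 14.02 CPM (1.21 ± 0.23, adjusted p = 0.20). For these 3 genes the HET and WT libraries did not overlap. Ccdc88c, Kcnk2, Eppk1 and Lef1 had log2 fold changes of 1.73 ± 0.35, 1.41 ± 0.29, 2.30 ± 0.47 and 2.84 ± 0.58, each with an adjusted p of 0.21. Lef1, a transcription factor of thymocytes and of Wnt signalling, was low, at 3.32, 6.61 and 3.26 CPM in HET and 1.12, 0.274 and 0.580 CPM in WT.

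Taken apart, the capsular fibroblasts had 7 called genes of 10761 tested (0.065%), 4 higher (0.0372%) and 3 lower (0.0279%) in HET, and 7.81% at an unadjusted p under 0.05. Zbtb16 rose from 22.01, 9.13 and 24.1 CPM in WT to 87.5, 63.4 and 70.9 CPM in HET (1.88 ± 0.29, adjusted p = 0.016). Dsc2 stood at 14.2, 21.3 and 22.02 CPM in HET against 4.16, 4.32 and 6.03 CPM in WT (1.87 ± 0.34, adjusted p = 0.044). Slc46a2 stood at 63.9, 114 and 72.3 CPM against 29.7, 35.1 and 30.4 CPM (1.38 ± 0.24, adjusted p = 0.044). Nav2 was the other called gene that was higher, at 39.0, 53.2 and 50.9 CPM against 23.2, 19.7 and 14.5 CPM (1.35 ± 0.24, adjusted p = 0.044), and it is named because the called genes are few. The 3 genes that fell were Tnfrsf11b, Krtdap and Tppp3. Tnfrsf11b (chr15:54250619-54278484) stood at 3.55, 7.48 and 8.26 CPM in HET and 22.6, 33.1 and 31.5 CPM in WT (-2.13 ± 0.32, adjusted p = 0.016). Krtdap (chr7:30787896-30791097), which encodes a secreted protein best known from differentiating keratinocytes, stood at 9.46, 15.8 and 8.95 CPM in HET and 39.3, 25.5 and 51.1 CPM in WT (-1.75 ± 0.32, adjusted p = 0.045). Tppp3 stood at 31.9, 15.4 and 22.02 CPM in HET and 51.8, 71.6 and 67.8 CPM in WT (-1.61 ± 0.27, adjusted p = 0.032). In each of the 7 genes every HET library lay on 1 side of every WT library. The same was true, higher in HET, of 6.16% and, lower in HET, of 5.05% of the capsular genes tested.

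The number of capsular calls depended on single libraries. It was 0 without HET3, 2 without WT2, 4 without HET2, 12 without HET1 and 20 without WT1. Zbtb16 was called in 10 of 14 alternative analyses, with adjusted p of 0.053 without HET1, 0.069 without HET3 and 0.051 without WT2. Tnfrsf11b was called in 12 of 14, with an adjusted p of 0.069 without HET3. Tppp3 and Krtdap were each called in 8 of 14. The call of Tppp3 was lost without HET2, HET3 or WT2 (adjusted p = 0.056, 0.16 and 0.082) and that of Krtdap without HET1, HET3 or WT3 (0.16, 0.22 and 0.15). Slc46a2 was called in 8, Dsc2 in 7 and Nav2 in 6 of 13, and all 3 lost the call without HET2, HET3 or WT2 (adjusted p = 0.064 to 0.25), Nav2 also without WT3 (0.15).

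The medullary fibroblasts had 5 called genes of 9627 tested (0.0519%), 4 higher (0.0415%) and 1 lower (0.0104%), and 8.12% at an unadjusted p under 0.05. Zbtb16 was again higher, at 66.7, 42.6 and 54.97 CPM in HET and 7.06, 5.10 and 17.5 CPM in WT (2.17 ± 0.35, adjusted p = 0.021), and this call held with each library left out in turn. The call held in 13 of 14 alternative analyses and was lost with sums thinned to the smallest library (adjusted p = 0.069). Slc46a2 stood at 75.0, 125.2 and 63.0 CPM against 32.3, 37.6 and 32.1 CPM (1.40 ± 0.26, adjusted p = 0.034). Gmpr, which encodes guanosine monophosphate reductase, stood at 55.6, 41.7 and 30.98 CPM in HET and 10.1, 12.1 and 13.2 CPM in WT (1.72 ± 0.30, adjusted p = 0.023). Car3, a carbonic anhydrase gene, stood at 13.9, 81.9 and 10.99 CPM in HET and 0, 0.638 and 4.86 CPM in WT (3.80 ± 0.65, adjusted p = 0.023). Its level rests on HET2, without which the log2 fold change was 2.03 and the adjusted p 0.20, and DESeq2 gave an adjusted p of 0.999. The gene that fell was Igfbp5 (chr1:72857932-72874884), which encodes a secreted binding protein of insulin-like growth factors. Igfbp5 stood at 69.4, 69.04 and 78.95 CPM in HET and 231, 216 and 123 CPM in WT (-1.37 ± 0.25, adjusted p = 0.032). The 3 HET libraries were close together and below every WT library, and 12.2% of the medullary genes had no overlap in 1 direction or the other.

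The medullary count was 2 without WT2, 11 without WT1, 12 without HET2 and 13 without HET3. The call of Igfbp5 was lost without HET1, HET3 or WT2 (adjusted p = 0.082, 0.0501 and 0.19), that of Gmpr without HET1 or WT2 (0.066 and 0.13), and that of Slc46a2 without HET1, HET2, WT2 or WT3 (0.055, 0.12, 0.14 and 0.065). In the pooled fibroblasts Igfbp5 stood at 119.4, 117 and 126 CPM in HET and 246, 192.1 and 223 CPM in WT (-0.91 ± 0.20, adjusted p = 0.21). Zbtb16 and Slc46a2 were the only genes called in both the capsular and the medullary fibroblasts.

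**Figure D1:**
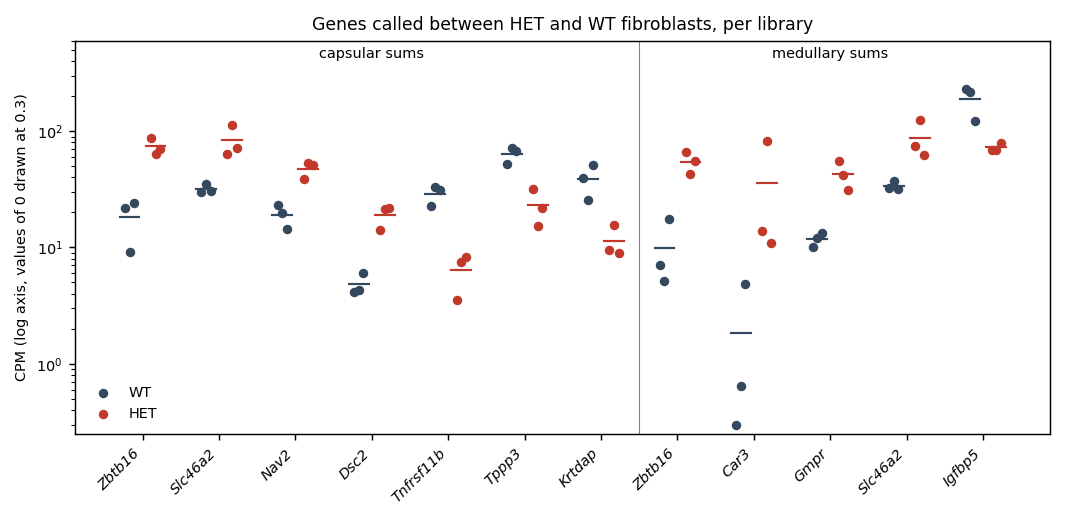
CPM of the genes called in capsular or medullary fibroblasts, with 1 point per library (HET and WT, n = 3 each), the group mean as a bar and a log axis on which values of 0 are drawn at the bottom. Zbtb16 lay at 42.6 to 87.5 CPM in every HET sum and at 5.10 to 24.1 CPM in every WT sum, and capsular Tnfrsf11b at 3.55 to 8.26 CPM in HET and 22.6 to 33.1 CPM in WT.

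The labels divide the fibroblasts into 11 subtypes, which shows where the called genes were expressed. Zbtb16 was higher in HET in all 7 subtypes with at least 20 cells in every library, and the groups did not overlap in 6 of them. The ratio of the means was smallest in CapFb4, at 84.1 ± 45.8 CPM in HET and 34.7 ± 22.1 CPM in WT (SD, n = 3), and largest in MedFb2a, at 57.999 ± 7.80 and 10.4 ± 8.48 CPM. Tnfrsf11b was held by CapFb4, which carried 78.8% of the capsular Tnfrsf11b UMIs in WT and 47.1% in HET. Within CapFb4, Tnfrsf11b stood at 41.1, 44.5 and 33.9 CPM in HET (3, 8 and 5 UMIs) and 170, 264 and 191.8 CPM in WT (31, 48 and 170 UMIs), means of 39.8 ± 5.39 and 209 ± 49.3 CPM. In the capsular cells other than CapFb4 it stood at 0, 4.66 and 5.36 CPM in HET and 4.67, 11.1 and 6.78 CPM in WT, and there the groups overlapped. Krtdap was likewise concentrated in CapFb4, with 67.9% of its capsular UMIs in WT and 49.2% in HET. It stood at 82.2, 83.4 and 61.1 CPM in HET and 219, 171 and 271 CPM in WT within that subtype. Unlike Tnfrsf11b, Krtdap was also lower without overlap in the capsular cells other than CapFb4. There it stood at 2.59, 10.6 and 3.06 CPM in HET and 17.35, 11.58 and 17.22 CPM in WT. The numbers of CapFb4 cells were 25, 50 and 52 in HET and 54, 32 and 109 in WT, or 5.24% and 5.73% of the fibroblasts on average. These subtype levels are descriptions, since no test was run within subtypes.

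Igfbp5 had its highest level in CapFb4, at 1041, 1507 and 937 CPM in HET and 1459, 1233 and 1602 CPM in WT, which overlapped. In MedFb2a, the main medullary subtype by number, Igfbp5 stood at 90.3, 102 and 102 CPM in HET and 355, 269 and 180 CPM in WT, and its mean was lower in HET in 7 of 7 subtypes. Tppp3 was also lower in HET in 7 of 7 subtypes. Subtype shares did not pass a test, which set cell counts against the fibroblast total of each library and so does not address total fibroblast numbers. By edgeR 0 of 11 were called and 0 had an unadjusted p under 0.05 (adjusted p = 0.53 to 0.70). CapFb1b, the most frequent, made up 33.7, 32.1 and 25.1% of the fibroblasts in HET and 28.1, 25.6 and 25.4% in WT. The largest ratios of shares were in the rarer subtypes, such as CapFb2a with 1.31% on average in HET and 2.28% in WT. Medullary cells were 29.7, 35.3 and 40.5% of the fibroblasts in HET and 35.8, 45.04 and 36.8% in WT.

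Because the sort kept TEC, RNA free in the suspension can reach fibroblast droplets, and TEC transcripts were read in the fibroblast sums. The 14 shared TEC markers, among them Epcam, Krt8, Krt5 and Foxn1, summed to 620, 1298 and 845 CPM in HET fibroblasts and 488, 582 and 479 CPM in WT. Every HET library was above every WT library (exact permutation p = 0.10, two-sided, the smallest that 3 against 3 allows). Relative to TEC of the same library these levels were 8.27, 17.2 and 16.8% in HET and 7.09, 5.69 and 4.61% in WT. In TEC themselves the markers summed to 7494, 7559 and 5019 CPM in HET and 6881, 10217 and 10392 CPM in WT. The shares thus also move with the TEC level, which was lowest in HET3 and highest in WT3. These shares were alike in capsular cells (8.14, 16.47 and 18.2% against 6.74, 5.49 and 4.86%) and medullary cells (8.56, 18.6 and 14.8% against 7.68, 5.97 and 4.16%). Mural cells stood at 10.4, 19.4 and 19.2% against 7.08, 7.12 and 5.71%, and endothelium at 14.03, 25.1 and 23.7% against 12.9, 13.7 and 11.1%. HET2 and HET3 thus carried the highest shares of TEC marker RNA in each of the nonepithelial classes read here, and HET1 lay near WT1. TEC were 48.1, 48.3 and 39.9% of the labelled cells in HET and 28.0, 43.7 and 41.7% in WT.

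Single TEC genes were also higher in HET fibroblasts, without passing the test. Prss16, a protease of cortical TEC, stood at 117, 240 and 181.8 CPM in HET and 74.8, 90.98 and 76.96 CPM in WT (1.12 ± 0.24, adjusted p = 0.21). Epcam, the epithelial adhesion molecule, stood at 38.2, 76.9 and 50.5 CPM in HET and 24.3, 36.2 and 25.2 CPM in WT (0.95 ± 0.25, adjusted p = 0.29). Of the shared TEC list 11 of 14 genes were deep enough to test, with 10 at an unadjusted p under 0.05 and all 10 higher in HET, 7 without overlap (6.81% of all genes were higher without overlap) and a median log2 fold change of 0.86. That median was 0.50 without HET2, and 0.47 in medullary cells, where it was 0.88 with all libraries. Of the cortical list 7 of 10 tested were higher at that level (median 0.84, and 0.43 without HET2), and of the medullary and MHC class II list 9 of 11 (median 0.89, and 0.51 without HET2), where 5.28% of all genes tested were higher and the median of all genes was 0.01. None of these was called in the pooled fibroblasts, and Slc46a2 was the only called member in the capsular and in the medullary cells. The cortical sums were 2387, 4496 and 2822 CPM against 1808, 2086 and 2425 CPM, which overlapped (exact permutation p = 0.20), and the medullary sums 1391, 2896 and 1938 CPM against 1040, 1283 and 1086 CPM (exact permutation p = 0.10).

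Genes with a mean CPM in TEC over 2 times that in fibroblasts were 12.7% of all genes tested in the pooled fit. They were 45.1% (283 of 628) of the genes higher in HET at an unadjusted p under 0.05, and 2.11% (8 of 379) of those lower. Set against capsular cells, 3 of the 4 genes called higher there were of this kind (Slc46a2, Dsc2 and Nav2), and set against medullary cells, 3 of the 4 called higher in those (Slc46a2, Gmpr and Car3). For Slc46a2, Dsc2, Nav2 and Gmpr the ratios of mean CPM in TEC to that in pooled fibroblasts were 13.03, 10.8, 23.3 and 7.36. For Car3 and Tnfrsf11b they were 1.66 and 2.59, and for Zbtb16 the ratio was 0.16. In TEC themselves Slc46a2 and Gmpr had log2 fold changes of -0.05 and -0.25. Car3 was higher in HET there, with means of 75.1 CPM in HET and 5.18 CPM in WT (3.57 ± 0.79, adjusted p = 0.69). Tnfrsf11b had means of 21.4 CPM in HET and 38.3 CPM in WT in TEC (-0.79 ± 0.34, adjusted p = 0.69). With the level of the shared TEC markers as a covariate, none of the 7 capsular genes and 1 of the 5 medullary genes, Zbtb16, was called. That level was higher in every HET library than in any WT library, so this fit cannot cleanly separate it from genotype. A lost call therefore does not show where the RNA came from. In that fit Slc46a2 had log2 fold changes of 0.60 and 0.67, and Zbtb16 of 2.34 (adjusted p = 0.097) and 2.93 (adjusted p = 0.0028). In the capsular cells those of Tnfrsf11b, Krtdap and Tppp3 were -3.14, -2.25 and -1.03 (adjusted p = 0.25, 0.53 and 0.53). The part of free RNA in the single genes was not tested.

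**Figure D2:**
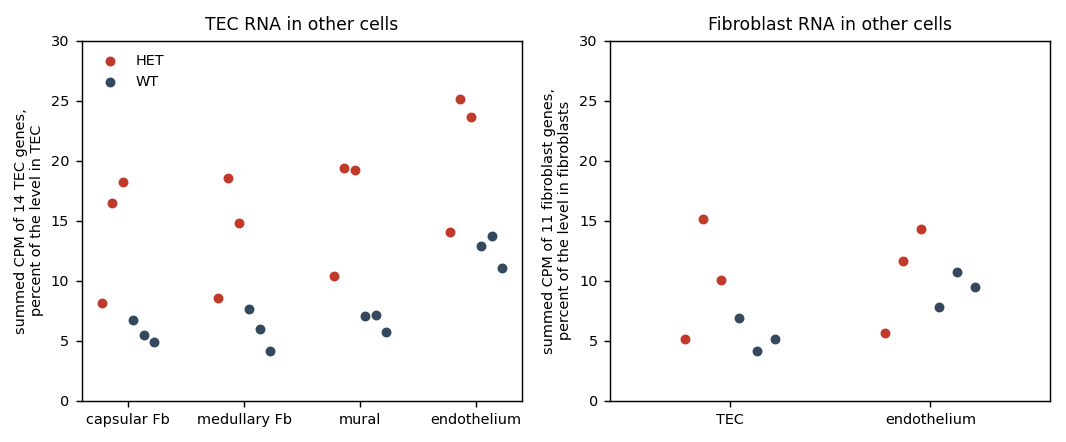
Summed level of the shared TEC markers in capsular fibroblasts, medullary fibroblasts, mural cells and endothelium as a percentage of the level in TEC of the same library (left), and of the shared fibroblast markers in TEC and endothelium as a percentage of the fibroblast level (right), with 1 point per library. On the left, HET2 and HET3 stood at 14.8 to 25.1% in all 4 classes, HET1 at 8.14 to 14.03%, and the WT libraries at 4.16 to 13.7%.

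The 20 thymocyte markers summed to 39.0, 213 and 82.7 CPM in HET and 49.03, 46.6 and 34.5 CPM in WT, with HET2 highest and HET1 within the WT range. Erythroid markers summed to 45.6, 353 and 26.9 CPM against 8.98, 64.7 and 51.8 CPM, again highest in HET2, and Slc4a1 was at 0. The fibroblast's own RNA was read in TEC in turn, where the 11 shared fibroblast markers reached 5.12, 15.1 and 10.03% of their fibroblast level in HET and 6.91, 4.19 and 5.12% in WT. In the fibroblasts those 11 markers summed to 17346, 17810 and 15774 CPM in HET and 19000, 21363 and 24470 CPM in WT, without overlap (exact permutation p = 0.10). Pdgfra ran the other way, at 547, 533 and 661 CPM in HET and 455, 445 and 367 CPM in WT (0.42 ± 0.21, adjusted p = 0.61).

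Axon guidance genes also steer mesenchyme and neural crest, and they were read as 3 families. None of their members was called in pooled, capsular or medullary fibroblasts, where the shares of all genes called were 0, 0.065 and 0.0519%. Of 23 semaphorins, plexins and neuropilins tested in the pooled cells, 1 was higher and 2 lower at an unadjusted p under 0.05 (5.28% and 3.19% of all genes), with a median log2 fold change of 0.05. Nrp1, the coreceptor of class 3 semaphorins and VEGF, had the highest level, at 349, 293 and 381 CPM in HET and 411, 391 and 280 CPM in WT (-0.12 ± 0.21, adjusted p = 0.88). Sema3c, a secreted semaphorin of neural crest targets, stood at 63.0, 39.9 and 82.3 CPM against 96.9, 64.1 and 95.5 CPM, with overlap (-0.54, adjusted p = 0.59). Of 16 ephrins and Eph receptors 3 were higher and 2 lower at that level (median -0.04). Efnb1, the ligand ephrin-B1 that acts in neural crest migration, stood at 57.2, 38.3 and 52.6 CPM in HET and 78.6, 75.9 and 76.96 CPM in WT (-0.71 ± 0.20, adjusted p = 0.31). Its groups did not overlap in the pooled, capsular or medullary sums. Epha7 stood at 74.6, 63.4 and 75.8 CPM against 59.5, 53.99 and 34.9 CPM (0.50, adjusted p = 0.54). Of 18 genes of the Slit, Robo, netrin and RGM family 1 was higher and 0 lower (median -0.03), and Slit2, Slit3 and Srgap2, the highest in level, had log2 fold changes of 0.36, 0.42 and 0.22.

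Of 15 integrin genes tested in the pooled fibroblasts 2 were higher and 0 lower at an unadjusted p under 0.05 (median 0.03), and none was called. Of all genes 5.28% were higher and 3.19% lower at that level, and 6.81% and 5.49% did not overlap, which is the background for the adhesion lists. Itgb1, the beta chain shared by most matrix-binding integrins, stood at 684, 622 and 624 CPM in HET and 581, 740 and 646 CPM in WT (-0.07 ± 0.22, adjusted p = 0.93). Itga1 and Itgb5 had log2 fold changes of 0.03 and -0.21. Itgb4, singled out after its values were seen, is the hemidesmosomal beta chain of epithelia and stood at 16.6, 14.01 and 17.9 CPM in HET and 8.61, 6.85 and 3.77 CPM in WT (1.39 ± 0.31, adjusted p = 0.21), with a mean of 147 CPM in TEC. Of 35 cadherins, catenins and immunoglobulin family members 6 were higher and 4 lower (median 0.01), and 7 and 5 did not overlap. Alcam, also singled out afterwards, stood at 69.7, 103.3 and 96.2 CPM against 53.1, 48.0 and 52.1 CPM, with 732 CPM in TEC. Vcam1, Icam1 and Cd47, the highest in level, had log2 fold changes of 0.04, 0.34 and -0.36. Of 26 focal adhesion components 4 were higher and 0 lower (median 0.06). Talin 1 (Tln1), Ilk and Fermt2 had log2 fold changes of -0.16, -0.02 and -0.16. Tns2, which encodes tensin 2, was the clearest member outside the rule for naming, at 98.7, 86.2 and 105 CPM in HET and 57.6, 61.7 and 52.9 CPM in WT (0.70 ± 0.18, adjusted p = 0.28). Its mean level in TEC was 22.3 CPM, below that in fibroblasts.

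Of 30 migration ligands and receptors tested in the pooled fibroblasts 2 were higher and 6 lower at an unadjusted p under 0.05, as were 5.28% and 3.19% of all genes, and none was called. Without overlap 2 were higher and 5 lower (6.81% and 5.49% of all genes). The median was -0.07 and ran from -0.05 to 0.06 with 1 library left out. Ptn, the secreted heparin-binding factor pleiotrophin, was the highest in level, at 3501, 3245 and 2579 CPM in HET and 3698, 5037 and 5267 CPM in WT (-0.64 ± 0.29, adjusted p = 0.59). Postn, the matricellular protein periostin, stood at 947, 862 and 927 CPM against 1305, 1488 and 1332 CPM (-0.64 ± 0.23, adjusted p = 0.50). For both genes each HET library lay below each WT library. The lean of the pooled list was not seen in the capsular cells, where 6 of 30 members were higher and 4 lower at an unadjusted p under 0.05 (median 0.04). In the medullary cells 1 of 27 was higher and 3 lower (median -0.004). Of all genes 7.81% and 8.12% passed that level in either direction in the capsular and medullary cells.

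**Figure D3:**
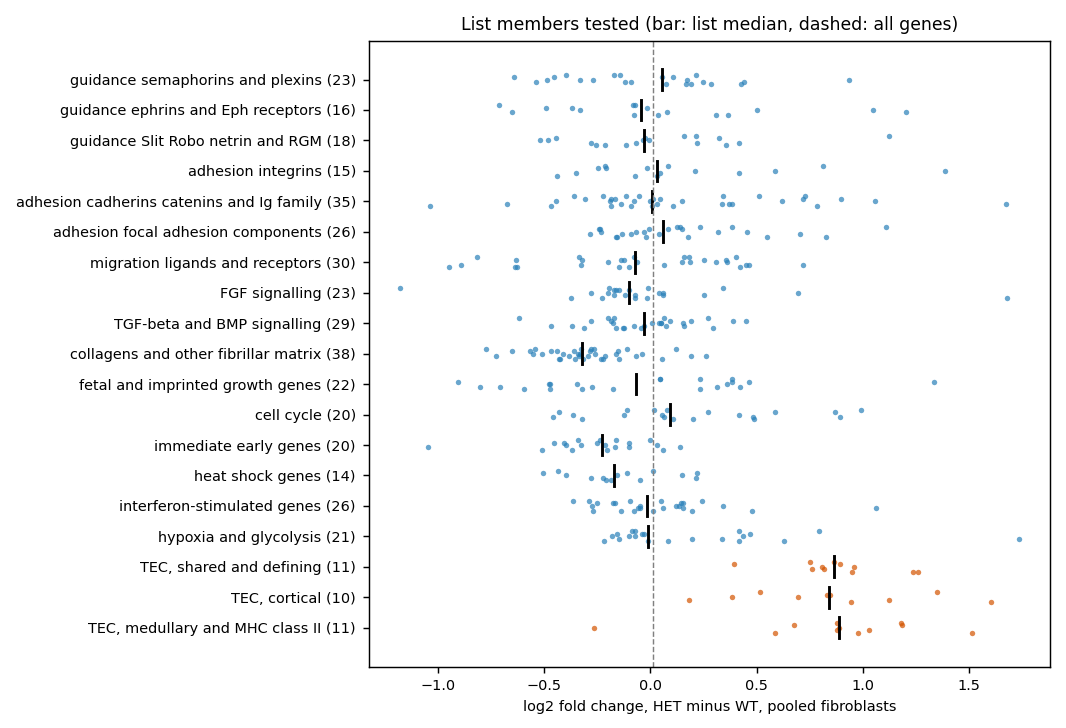
Log2 fold changes (HET over WT) in pooled fibroblasts of the tested members of each guidance, adhesion, migration, signalling, matrix, state and TEC marker list shown, with 1 point per gene, the list median as a bar and the median of all genes as a dashed line. The list medians of guidance, adhesion and migration genes lay between -0.07 and 0.06, that of the matrix genes at -0.32, and those of the 3 TEC lists at 0.84 to 0.89.

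Of 23 FGF pathway genes 2 were higher and 1 lower at an unadjusted p under 0.05 (5.28% and 3.19% of all genes). Their median was -0.10, but 0.03 without HET3, -0.16 without HET2 and -0.06 with an equal subtype mix. For that mix the same number of cells of each subtype was drawn from every library, set by the library with the fewest. The draw therefore also lowered the depth of the sums. Fgfr1, Spry1 and Spry2, the receptor and inhibitors of the pathway with the highest levels, had log2 fold changes of 0.25, -0.17 and -0.19. Of 29 TGF-beta and BMP genes 1 was higher and 1 lower (median -0.03), and Tgfbr1, Nbl1 and Id3 had log2 fold changes of 0.45, -0.62 and -0.28. The genes of the region deleted in DiGeorge syndrome, of which Tbx1 and Crkl are members, were 24 tested of 35 in the file. Of these 1 was higher and 2 lower, with a median of 0.02 and sums of 954, 1045 and 1021 CPM in HET and 980, 1057 and 1078 CPM in WT.

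Matrix genes were the list whose members lay most on 1 side among the lists of fibroblast functions. Of 38 collagens and other fibrillar matrix genes tested in the pooled cells 34 had a negative log2 fold change, with a median of -0.32, against 48.7% negative genes and a median of 0.01 over all genes tested. Of the 38, 5 were lower at an unadjusted p under 0.05 and 0 higher, and 10 had all HET libraries below all WT libraries, where 3.19% and 5.49% of all genes did. None was called, so single matrix genes did not pass the test. In the capsular cells 33 of 38 were negative (median -0.30) and in the medullary cells 33 of 37 (median -0.22). With an equal subtype mix 23 of 35 were negative in the medullary cells, with a median of -0.12. That draw left 6191 genes tested in the medullary cells in place of 9627. It changed subtype mix and depth together, so their parts cannot be told apart. Over the alternative analyses the pooled median ran from -0.42 to -0.23.

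Col3a1, the most abundant member after pooling, stood at 5831, 5849 and 6506 CPM in HET and 6373, 7622 and 8254 CPM in WT (-0.34 ± 0.29, adjusted p = 0.74). Dcn, the collagen-binding proteoglycan decorin, stood at 3799, 3889 and 2550 CPM against 3989, 4525 and 6133 CPM (-0.57 ± 0.31, adjusted p = 0.62). Lum, which encodes lumican and was singled out after its values were seen, stood at 709, 670 and 472 CPM against 835, 968 and 1251 CPM (-0.77 ± 0.26, adjusted p = 0.44). For Dcn and Lum the groups did not overlap, and WT3, the deepest library, was the highest in all 3 genes. Abundant genes as a whole leaned the same way. Of 1881 genes with a mean of at least 100 CPM 63.3% were negative, with a median of -0.11, and of 10016 genes under 100 CPM 45.996% were negative. The part of this lean, and of depth per cell, in the matrix values was not tested. In the same libraries the sum of the shared TEC markers was higher in every HET library than in any WT library. The 5 nuclear-retained RNAs were all positive. The sum of the 11 shared fibroblast markers was lower in every HET library than in any WT library. Col1a1, Col1a2, Col3a1, Dcn, Lum and Fbln1 belong to both that list and the matrix list, so these readings share values. With the TEC marker level as a covariate 35 of the 38 matrix genes were negative (median -0.38). As that level lay apart between HET and WT, this fit cannot cleanly separate it from genotype.

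None of the genes that report cell state was called. At an unadjusted p under 0.05, 5.28% of all genes were higher and 3.19% lower. Of 20 immediate early genes 1 was lower at that level and 17 were negative (median -0.23). The median was -0.09 without HET3, -0.14 without WT3 and -0.35 without HET1. Fos and Jun stood at log2 fold changes of -0.51 ± 0.29 and -0.33 ± 0.25. Klf2, chosen from that list after its values were seen, encodes a transcription factor induced by shear stress and was at 121.9, 131.1 and 153 CPM in HET and 224, 216 and 365 CPM in WT (-1.05 ± 0.25, adjusted p = 0.25). Of 14 heat shock genes 1 was lower and 0 higher at an unadjusted p under 0.05, and of 26 interferon-stimulated genes 1 was higher and 0 lower. Of 20 cell cycle genes 2 were higher and 0 lower, of 21 genes of hypoxia and glycolysis 4 higher and 0 lower, and of 22 fetal and imprinted growth genes 1 higher and 4 lower. Dlk1 and Meg3, imprinted genes of 1 locus that are high in fetal mesenchyme, had log2 fold changes of -0.47 ± 0.32 and 0.47 ± 0.35. Of the remaining marker lists, 1 of 2 myeloid and 2 of 12 endothelial genes tested were higher at an unadjusted p under 0.05 and 0 lower, 1 of 11 pericyte and smooth muscle genes was lower, 1 of 4 neural crest and glial genes was higher and 1 lower, and neither of 2 mesothelial genes passed. Of the fibroblast markers, 1 of 13 capsular genes was higher and 3 lower, and 2 of 11 medullary genes were lower. Of RNA quality measures, mitochondrial UMIs were 1.22 to 1.80% of the fibroblast UMIs. The nuclear-retained RNAs read were Malat1, Neat1, Xist, Meg3 and Kcnq1ot1. Meg3 is also in the fetal list, and the part of the sex of the mice in the Xist level was not tested. The nuclear-retained RNAs summed to 102790, 59798 and 124450 CPM in HET and 98449, 65387 and 49095 CPM in WT, with overlap. All 5 of these RNAs had a positive log2 fold change (median 0.47), 2 were higher at an unadjusted p under 0.05 and none without overlap. Their median was 0.25 without WT3, 0.85 without WT1 and 0.94 with the TEC marker level as a covariate.

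The gene that led in fibroblasts was read in the other cells of the same libraries. Zbtb16 was higher in HET in mural cells (2.10 ± 0.30, adjusted p = 0.0074) and in endothelium (2.86 ± 0.43, adjusted p = 0.0077), where it was the only called gene of 7957 (0.0126%). In TEC it had a log2 fold change of 2.13 ± 0.51 with an adjusted p of 0.69 and lower levels, a mean of 2.63 CPM in WT and 10.9 CPM in HET. No gene was called in TEC (0% of 13718, 851 genes, 6.2%, at an unadjusted p under 0.05), and 12 of 10671 (0.112%) were called in mural cells. The difference in Zbtb16 effect between fibroblasts and each other class was not called. Car3 and Gmpr were also higher in mural cells (3.25, adjusted p = 0.033, and 1.21, adjusted p = 0.047).

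The genes Fkbp5, Per1, Tsc22d3, Klf9, Map3k6 and Hif3a were all chosen after their values were seen and belong to no list read here. Fkbp5, which encodes a chaperone cofactor of steroid receptors, stood at 162, 154 and 167.9 CPM in HET fibroblasts and 93.9, 68.8 and 87.9 CPM in WT (0.90 ± 0.20, adjusted p = 0.21). The groups did not overlap in any of 7 subtypes, and in mural cells the gene was called higher (1.17 ± 0.20, adjusted p = 0.033). Per1, a clock gene, stood at 64.7, 62.6 and 66.8 CPM against 56.9, 36.2 and 31.7 CPM (0.62 ± 0.21). Tsc22d3 and Klf9 had log2 fold changes of 0.48 ± 0.31 and 0.45 ± 0.24 and were not called. Map3k6 stood at 24.9, 25.9 and 26.1 CPM against 13.1, 12.6 and 12.47 CPM (0.97 ± 0.22, adjusted p = 0.21), and Hif3a at 24.9, 29.1 and 29.3 CPM against 11.23, 12.1 and 16.2 CPM (0.99 ± 0.24).

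**Figure D4:**
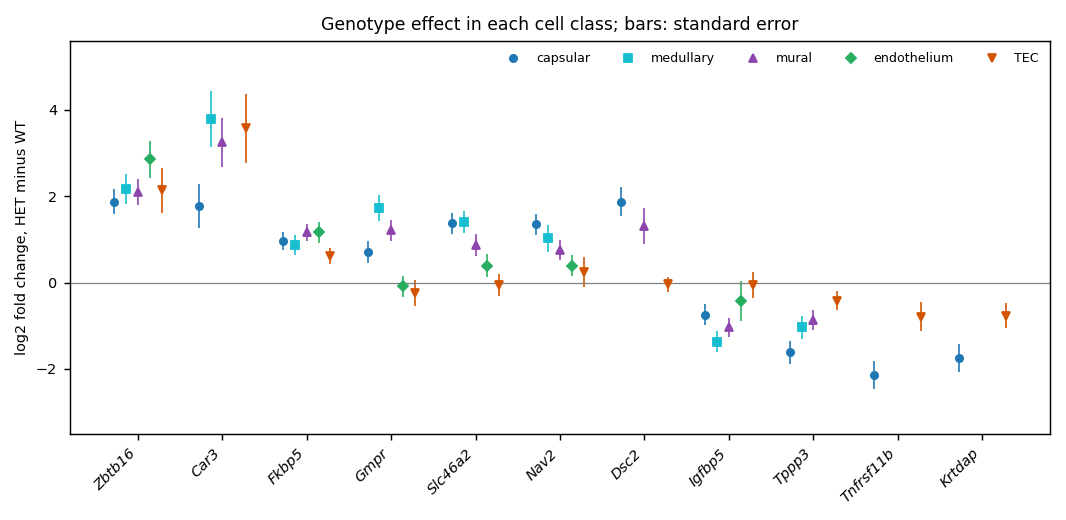
Log2 fold changes (HET over WT) with standard errors of the genes named in fibroblasts, in capsular fibroblasts, medullary fibroblasts, TEC, endothelium and mural cells, where the class had enough UMIs to test. Zbtb16 lay between 1.88 and 2.86 in all 5 classes, and Slc46a2 at 1.38 and 1.40 in the fibroblasts and -0.05 in TEC.

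To set apart effects that differ between classes, the genotype effects were compared within libraries. Between fibroblasts and TEC 0.758% of 14253 genes differed, 75 with a more positive effect in fibroblasts (0.526%) and 33 with a more negative one (0.232%). With DESeq2 size factors 28 of 140 were more negative and the others more positive, and the balance turned without HET1 (274 more positive and 453 more negative) and without the filter on low counts (274 and 423). Of the 75, 74 had a mean CPM in TEC over 2 times that in fibroblasts, as did 22.2% of all genes, and of the 33, 30 were over 2 times higher in fibroblasts, as were 12.7% of all genes. Among differing genes with a mean of at least 10 CPM over both classes, Bspry, Rnf128 and Grp had the largest positive differences, 2.31 ± 0.43, 2.24 ± 0.44 and 2.20 ± 0.39. Grp, the gastrin-releasing peptide gene, stood at 6.64, 7.14 and 7.34 CPM in HET fibroblasts and 2.25, 4.11 and 1.74 CPM in WT, and at means of 24.4 and 40.1 CPM in TEC. Ptx3, Clec14a and Angptl1 had the largest negative differences by the same limit, -2.72 ± 0.41, -2.06 ± 0.34 and -2.03 ± 0.32. Angptl1, a secreted angiopoietin-like protein gene, stood at 21.6, 19.6 and 28.5 CPM in HET fibroblasts and 35.6, 50.2 and 64.2 CPM in WT. Ptx3, a soluble pattern recognition receptor gene, had means of 5.83 CPM in HET and 1.06 CPM in WT in TEC, and a fibroblast log2 fold change of 0.11 ± 0.35. Its mean level in TEC was 0.058 times that in fibroblasts, and the part of fibroblast RNA read in TEC was not tested. The total of these 75 and 33 genes became 727 without HET1, 40 without WT1, 20 without WT2, 6 without HET2, 5 without HET3 and 3 without WT3.

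Between fibroblasts and endothelium 17 of 11840 genes differed (0.144%), 14 more positive (0.118%) and 3 more negative (0.0253%) in fibroblasts, and 11 of the 14 were over 2 times higher in endothelium, as were 14.05% of all genes. The most positive of the named genes were Jag2, Ccdc88c and Cd93 (1.82 ± 0.33, 1.82 ± 0.30 and 1.56 ± 0.31), and the negative ones were Gm12840, Stc1 and Anxa1 (-1.67 ± 0.35, -1.53 ± 0.31 and -0.96 ± 0.19). Between fibroblasts and mural cells 41 of 12402 differed (0.331%), 9 more positive (0.0726%) and 32 more negative (0.258%) in fibroblasts. Of the 9, 8 were over 2 times higher in mural cells (8.07% of all genes), and of the 32, 21 were over 2 times higher in fibroblasts (7.77%). Among those with a mean of at least 10 CPM, Ankrd37, Itga4 and Cog7 led the first (2.08 ± 0.39, 2.07 ± 0.46 and 1.24 ± 0.28), and Scd1, Clmp and Tfpi2 the second (-2.19 ± 0.47, -1.93 ± 0.32 and -1.49 ± 0.31). Tfpi2, an inhibitor of tissue factor proteases, stood at 14.1, 28.5 and 38.7 CPM in HET fibroblasts and 44.5, 46.6 and 47.8 CPM in WT. Tnfrsf11b, under that limit, had the most negative difference of the 32 (-3.40 ± 0.53, adjusted p = 0.0042), its mean in mural cells being 4.63 CPM in HET and 1.82 CPM in WT. The count against endothelium was 0 without HET2, WT2 or WT3, 7 without HET3, 29 without WT1 and 51 without HET1, and that against mural cells was 0 without HET2 or HET3, 7 without WT3, 15 without WT2, 66 without HET1 and 79 without WT1.

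Capsular and medullary fibroblasts differed in their genotype effect in 14 of 11358 genes (0.123%), 5 more positive (0.044%) and 9 more negative (0.0792%) in capsular cells. Cxcl13, the B cell chemokine, stood at 110 to 193 CPM in HET capsular cells and 243, 245 and 407 CPM in WT (-1.04 ± 0.28), and at 41.7, 26.5 and 26.98 CPM against 34.3, 15.3 and 29.9 CPM in medullary cells (0.16 ± 0.31). The difference of the effects was -1.26 ± 0.26 (adjusted p = 0.011). Cxcl10, the interferon-induced T cell chemokine, stood at 839, 1014 and 1394 CPM in HET medullary cells and 1547, 1739 and 1300 CPM in WT (-0.50 ± 0.25), and at 613, 612 and 711 CPM against 492, 648 and 614 CPM in capsular cells (0.09 ± 0.24). Its difference was 0.59 ± 0.11 (adjusted p = 0.0049), and the groups overlapped in both sums. Cthrc1, a secreted protein gene of migrating mesenchyme, stood at 121.8, 140 and 121.8 CPM against 166, 170 and 403 CPM in capsular cells (-1.02 ± 0.31) and at 13.9, 22.5 and 18.99 CPM against 14.1, 8.30 and 23.2 CPM in medullary cells (0.24 ± 0.37). None of Cxcl13, Cxcl10 and Cthrc1 was called in the capsular or the medullary cells alone.

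The genes with the largest differences by the rule for naming were S1pr1, Gm26870 and Itga6 on the positive side and Hp, Car3 and Atp1b1 on the negative side. For Car3, 41 of the 42 fibroblast UMIs of WT2 lay in CapFb1c, where the WT libraries stood at 0, 111 and 14.6 CPM. Its capsular level in WT thus rests in part on 1 subtype of 1 library. S1pr1, the sphingosine 1-phosphate receptor of cell egress, stood at 11.8, 23.6 and 26.2 CPM in HET capsular cells against 19.6, 8.17 and 10.5 CPM, and at 2.78, 13.6 and 16.99 CPM in HET medullary cells against 31.3, 17.9 and 17.8 CPM (difference 1.56 ± 0.35, adjusted p = 0.032). Itga6, the laminin-binding integrin chain, stood at 24.8, 38.6 and 46.8 CPM against 34.5, 24.98 and 14.6 CPM in capsular cells and at 88.9, 83.5 and 73.96 CPM against 124.1, 97.0 and 68.5 CPM in medullary cells (0.95 ± 0.21, adjusted p = 0.032). S1pr1 and Itga6 were the only members of the guidance, adhesion and migration lists among the 14 besides Cthrc1. Gm26870 lies in a repetitive stretch at the start of chromosome 9, so its reads are uncertain. The count of 14 was 0 without HET2, 5 without WT3, 7 without HET3, 9 without WT2 and 23 without HET1 or WT1, so no call held with every library left out in turn.

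**Figure D5:**
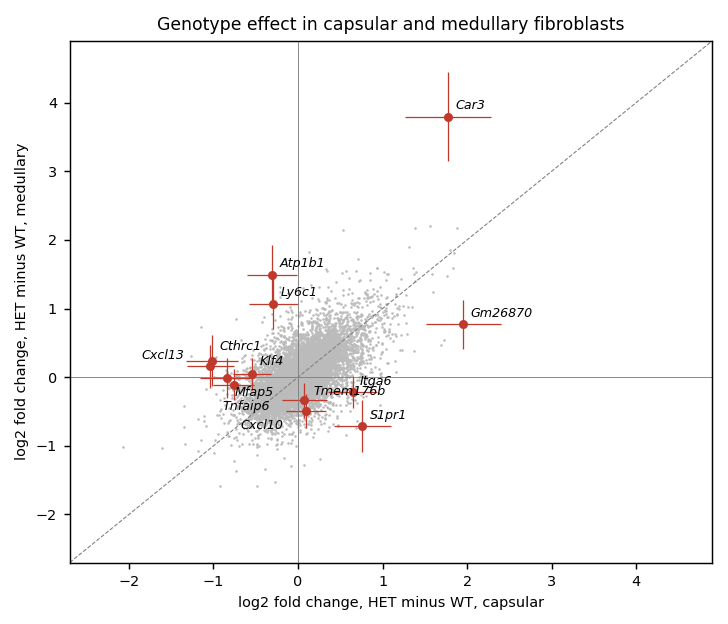
Log2 fold change (HET over WT) in medullary fibroblasts against that in capsular fibroblasts for the 9544 genes tested in both, in grey, with the genes whose effect differed between them in red with standard errors. The dashed line marks equal effects, and Cxcl13 lay at -1.04 in capsular and 0.16 in medullary cells; Hp could not be tested in medullary cells and is not drawn.

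The direction of these genes with age was read in an independent set of 20517 WT fibroblasts of 8 libraries, sorted without TEC and not fixed. There was 1 library each at the embryonic ages E12.5 and E13.5 and there were 2 each at E16.5, P0 and W4 (4 weeks), so P0 against W4 rests on 2 libraries each, with the spread estimated over all 8. Between P0 and W4 8556 of 16662 genes were called there by edgeR (51.4%), and 6504 of 16616 without the first and 6610 of 16609 without the second W4 library. Of the genes tested in pooled newborn fibroblasts, 29.2% were higher and 29.996% lower at W4. Of those higher in HET at an unadjusted p under 0.05, 39.0% were higher and 21.7% lower at W4, and of those lower in HET 30.6% were higher and 40.9% lower. With the genes of higher TEC level left out, the shares were 34.3 and 27.6% for genes higher in HET, 30.7 and 40.4% for those lower, and 27.6 and 31.1% for all. Zbtb16, Fkbp5 and Igfbp5 were not called with age (adjusted p = 0.24, 0.25 and 0.25), whereas the other 8 genes called in capsular or medullary cells were. Of those lower in HET, Tnfrsf11b and Krtdap fell from P0 to W4 (-1.48, adjusted p = 0.047, and -0.61, adjusted p = 0.0065) and Tppp3 rose (0.72, adjusted p = 0.00016). Of those higher in HET, Car3, Dsc2, Slc46a2 and Gmpr fell (-5.66, -1.34, -0.96 and -0.67, adjusted p = 0.0075, 0.016, 0.031 and 0.025) and Nav2 rose (1.09, adjusted p = 0.00067).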

How the data were processed

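Newborn thymic stroma of 3 HET and 3 WT libraries was read from 1 table of UMI counts per gene and cell. Per the labels and the study's methods, the authors counted UMIs with Cell Ranger 3.1.0 on mm10, kept singlets above 1000 genes with a mitochondrial share below 5%, left out contaminating clusters, transferred subtype labels by integration, and deposited raw counts. The lowest number of genes in a deposited cell was 876. Labels were used without change, the doublet caller was not rerun, and empty droplets were not analysed here.

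UMI counts of CapFb and MedFb cells were summed per library, pooled and apart, and fitted with edgeR 4.0.16 (filterByExpr, TMM, quasi-likelihood test, Benjamini and Hochberg, threshold 0.05) in R 4.3.3. The study tested single cells, which are not replicates. Differences of genotype effects were fitted with a term for each library. DESeq2 1.42.0 was an alternative, and exact permutation tests used scipy 1.17.1. Nothing in the labels says that libraries are separate litters, so p-values measure the spread between libraries. With 3 libraries of at least 1205649 UMIs, genes of a few CPM rest on few UMIs. Named were the 10 smallest p in pooled cells, up to 3 higher and 3 lower called genes with a mean of at least 10 CPM in each other test, and the top members of the lists. The members and lists were chosen with earlier results of these data known. Gene positions are those of GENCODE vM21 on GRCm38. Bulk libraries of the series were not used here, and 1 gene list is not reported here.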

Additional observations from a re-analysis of the deposited data

Results flagged for a closer look

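In all, 14 genes had a genotype effect (log2, HET over WT) that differed between capsular and medullary fibroblasts of the same libraries in edgeR's test of the difference. The effect was more negative in capsular than in medullary cells for Ly6c1 by -1.38 ± 0.25 (SE), Cthrc1 by -1.41 ± 0.28, Mfap5 by -0.85 ± 0.17, Hp by -2.85 ± 0.58, Cxcl13 by -1.26 ± 0.26, Car3 by -1.99 ± 0.41, Atp1b1 by -1.90 ± 0.42, Klf4 by -0.68 ± 0.15 and Tnfaip6 by -0.62 ± 0.14. It was more positive for Cxcl10 by 0.59 ± 0.11, Gm26870 by 1.26 ± 0.27, Itga6 by 0.95 ± 0.21, S1pr1 by 1.56 ± 0.35 and Tmem176b by 0.43 ± 0.10. Ly6c1 and Cxcl10 were called in 8 of 9 alternative analyses, S1pr1 and Tmem176b in 3 of 9. Ly6c1, a surface antigen gene, stood at 21.99 to 54.6 CPM in HET medullary cells and 10.1, 11.5 and 24.5 CPM in WT, with overlap, and at 35.5, 72.5 and 44.1 CPM against 43.4, 51.9 and 85.8 CPM in capsular cells. Mfap5, a microfibril protein gene of capsular fibroblasts, stood at 622, 1001 and 728 CPM in HET capsular cells and 928, 1122 and 1988 CPM in WT (-0.84 ± 0.32), and had an effect of -0.01 ± 0.29 in medullary cells. Hp, the haptoglobin gene, had 0 to 19.3 CPM in medullary HET libraries, and its highest value was that of HET2.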

How the results depend on the processing

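Counts of called genes moved with the settings. In pooled fibroblasts 0 genes became 11 with the DESeq2 Wald test, 129 without a filter on low counts, 1 with sums thinned to the smallest library, 1 with an equal subtype mix and 0 to 9 with 1 library left out. In capsular cells 7 became 14, 84, 3, 4 and 0 to 20 in that order, 1 with the TEC marker level as covariate and 3 with genes higher in TEC left out. In medullary cells 5 became 3, 47, 1, 3 and 2 to 13, then 1 and 1. The differences between capsular and medullary cells ranged from 0 to 23 with 1 library left out, and 14 became 21 without the filter. Without the filter the differences from TEC, 75 and 33 in the 2 directions, came to 697, those from endothelium went from 17 to 82 and those from mural cells from 41 to 99, and with 1 library left out they ranged from 3 to 727, 0 to 51 and 0 to 79. Subtype shares gave 0 under every alternative, and the W4 count ranged from 6504 to 9291. The replicate number of the labels as a block gave 14 calls in pooled, 31 in capsular and 16 in medullary cells, and the block by cell class gave 7 for capsular against medullary cells, 30 for TEC, 20 for endothelium and 41 for mural cells. Same-numbered libraries did not deviate together in the pooled sums (correlations of 0.14, 0.04 and -0.43), HET2 correlating best with WT3 (0.51). Such correlations cannot show whether same-numbered libraries shared a litter or a run. Of 496 alternative values of single genes 306 kept their side of the threshold, 160 lost a call, 30 gained one and none changed sign. DESeq2 size factors changed no count by over 1.5 times. Fewer libraries or UMIs enter by construction where libraries are left out, sums are thinned or the subtype mix is made equal. Leaving out genes higher in TEC took 3 of the 7 capsular and 3 of the 5 medullary called genes out of the test. For the other settings the cause was not tested. Depth limits genes of a few CPM, and HET1 with 424 cells is the thinnest library.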
